A study of Mus musculus with 12 samples.

Results

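Eef1a1 and Eef1a2 encode the 2 isoforms of translation elongation factor 1A, and they are 2 of the 27179 genes in the deposited expression table, found by their symbols. They were chosen because Eef1a2, the isoform of neurons and muscle, was lower after neuron ablation. The difference between the groups in either gene, in their sum and in the share of Eef1a2 is therefore described here and not tested. Eef1a1 has the Entrez identifier 13627 and Eef1a2 has 13628.

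Elongation factor 1A binds GTP and carries each aminoacyl-tRNA to the ribosome, and the eEF1B complex then exchanges its spent GDP for new GTP. Eef1a1 is expressed in almost every cell type and is among the most abundant messenger RNAs of dividing cells. Eef1a2 takes its place after birth in mature neurons, skeletal muscle and heart muscle, and mice that lack it (the wasted strain) lose motor neurons and muscle and die young. The gut wall holds its own network of such neurons, the enteric nervous system.

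The series concerns reinnervation of the colon after a local loss of enteric neurons. The 12 RNA libraries came from mouse colon, cut as full-thickness pieces at an injection site marked with India ink. The 5 controls had the genotype R26-iDTR, which carries a diphtheria toxin receptor that only Cre switches on, and no Cre. The 7 libraries called ablated here had the genotype BAF53b-Cre::R26-iDTR, in which Cre is driven by the promoter of BAF53b, a chromatin subunit of neurons. All mice of both groups had a laparotomy and 4 µL of diphtheria toxin at 0.33 ng per µL with 10% ink, so the injury and the toxin were shared and the receptor in neurons was not. The labels give neither the time after the toxin nor the sex or age, and they do not say that each library came from a separate mouse. The p-values below therefore measure only the spread between these libraries.

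Values are in TPM, a unit that divides reads by transcript length and scales every library to one total, so levels of different genes can be compared. Depth was 13.4 to 26.9 M reads, recovered from the TPM as whole numbers. Ablated 1 had the fewest reads and stood apart: mitochondrial genes took 18.7% of its reads, and 3.56% to 10.4% in the other 11 libraries. Of 30 pan-neuronal genes, 27 reached the minimum level for testing, and 17 were lower in the ablated libraries and 0 higher at an adjusted p under 0.05 (limma). Over all 16164 genes tested, 1.43% passed, 1.01% lower and 0.421% higher. In a bulk piece of tissue, fewer cells of a type and less RNA per cell cannot be told apart.

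The coding sequences show how far the reads of these isoforms can be separated. Both genes lie on the minus strand of GRCm38 (mm10): the Eef1a1 transcript runs from 78478449 to 78481724 on chromosome 9, and the Eef1a2 transcript from 181147653 to 181157014 on chromosome 2. Each has 8 exons in the GENCODE annotation, 7 of them coding. The first 6 coding exons have the same length in both genes, and these 1264 bases differed at 247 positions, an identity of 80.5%. Of those differences, 202 (81.8%) fell on the third base of a codon, where a change often leaves the amino acid the same. Identity by exon ran from 74.8% in coding exon 4 to 86.1% in coding exon 1.

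The first 120 coding bases are shown because they come from the most alike exon, and capitals mark the 18 bases that differ. Eef1a1 is read from chr9:78480535-78480654 and Eef1a2 from chr2:181155287-181155406, both as the minus strand.
Eef1a1: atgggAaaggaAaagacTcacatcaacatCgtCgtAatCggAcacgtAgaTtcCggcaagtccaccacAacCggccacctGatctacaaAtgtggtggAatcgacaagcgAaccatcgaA
Eef1a2: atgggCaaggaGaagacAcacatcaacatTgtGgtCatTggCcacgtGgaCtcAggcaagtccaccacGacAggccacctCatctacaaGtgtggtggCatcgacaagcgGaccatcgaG

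The longest run that both coding sequences share over those 6 exons was 23 bases, and any 100 bases in a row held at least 10 differences. No 50-base stretch of either whole transcript was found in the other. Against the transcripts of all other annotated genes, Eef1a2 shared none of its 2035 windows of 50 bases. Eef1a1 shared 1010 of its 1745 windows (57.9%) with transcripts of 20 other genes, and 26.1% of its windows of 100 bases with 9. Processed copies of Eef1a1 are common in mammalian genomes, and how reads that match several genes were counted is not given in the sources used here. The Eef1a1 level is therefore uncertain in a way the Eef1a2 level is not.

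Eef1a2 was measured at 5.21, 14.0, 13.1, 6.34 and 9.60 TPM in controls 1 to 5. In ablated 1 to 7 it was at 2.08, 0.284, 0.976, 0.426, 1.10, 0.102 and 0.550 TPM. The groups did not overlap, and the lowest control was 2.504 times the highest ablated library. Controls 1 and 4 were the low controls, and ablated 1 was the high ablated library. The mean was 9.65 ± 3.92 TPM (SD, n = 5) in controls and 0.788 ± 0.672 TPM (SD, n = 7) in ablated libraries, a level 12.2-fold lower. Without ablated 1 the ablated mean was 0.572 ± 0.391 TPM (SD, n = 6), 16.9-fold below the controls. Groups without overlap were found for 2.88% of all genes tested (1.55% with the ablated group lower, 1.33% higher). The choice of Eef1a2 used this contrast, and nothing is read from that share.

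**Figure D1:**
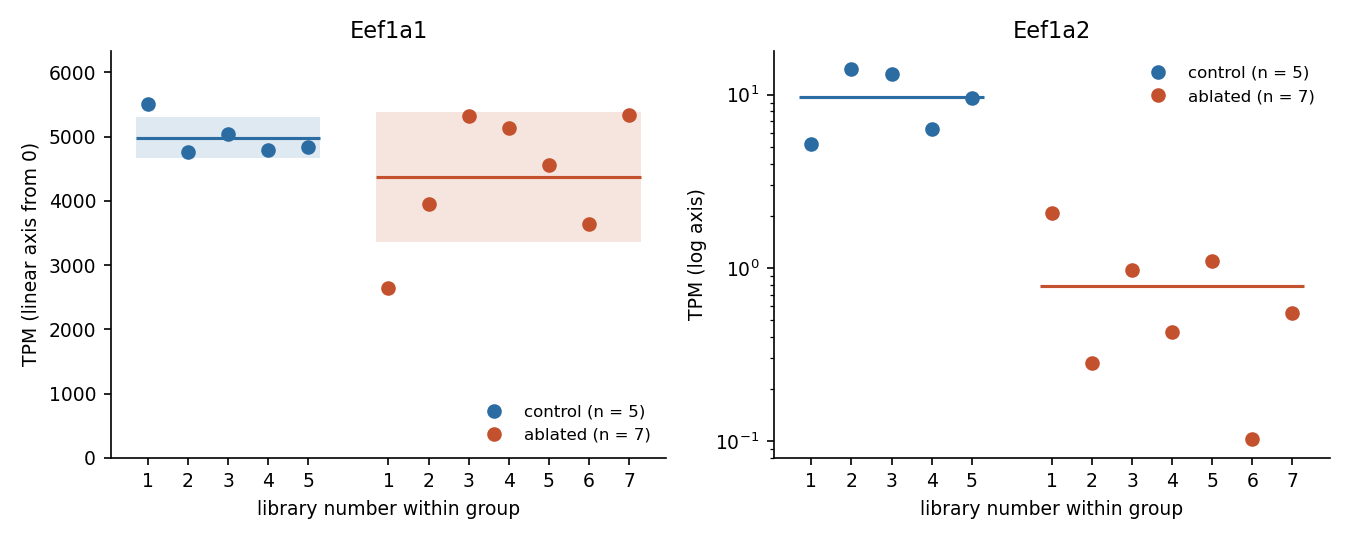
TPM of Eef1a1 (left, linear axis from 0) and Eef1a2 (right, log axis) in each of the 5 control and 7 ablated libraries; lines are group means and shaded bands 1 SD (left panel only). Eef1a1 overlaps between groups, with ablated 1 the lowest at 2649 TPM, and every ablated library lies below every control for Eef1a2.

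The Eef1a2 values rest on few reads. The controls held 92, 384, 351, 163 and 238 reads of Eef1a2, and ablated 1 to 7 held 33, 7, 25, 10, 27, 3 and 16. In all, 1228 reads came from controls and 121 from ablated libraries. The 3 reads of ablated 6 allow a level of 0.0211 to 0.299 TPM, and the 7 of ablated 2 a level of 0.114 to 0.585 TPM (exact 95% Poisson intervals, counting error only). The 33 reads of ablated 1 allow 1.43 to 2.92 TPM, an interval that lies above those of ablated 2, 4, 6 and 7. Among ablated libraries 2, 3, 4, 5 and 7, several neighbours in the order therefore do not differ beyond counting error. The interval of control 1, the lowest control, was 4.20 to 6.39 TPM.

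Eef1a1 was measured at 5512, 4757, 5047, 4786 and 4832 TPM in controls 1 to 5. In ablated 1 to 7 it was at 2649, 3958, 5329, 5142, 4555, 3637 and 5342 TPM. The groups overlapped: ablated 3, 4 and 7 lay within the range of the controls, and ablated 1, 6, 2 and 5 lay below every control. The mean was 4987 ± 315 TPM (SD, n = 5) in controls and 4373 ± 1013 TPM (SD, n = 7) in ablated libraries, or 87.7% of the control mean. Without ablated 1 the ablated mean was 4661 ± 734 TPM (SD, n = 6). With and without that library, the difference from controls was smaller than the SD of the ablated group. Reads of Eef1a1 numbered 36769 to 135992 per library, so counting error is not what limits its precision.

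Eef1a1 was the 10th to 14th most abundant gene in every control, and the 6th to 28th in the ablated libraries. Eef1a2 stood between ranks 7173 and 10800 in controls and between 12905 and 17999 in ablated libraries. For each Eef1a2 transcript, controls held 340 to 1058 transcripts of Eef1a1, and ablated libraries 1274 to 35575. The summed level of both isoforms was that of Eef1a1: 4996 ± 313 TPM (SD, n = 5) in controls and 4374 ± 1013 TPM (SD, n = 7) in ablated libraries.

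The share of Eef1a2 in that sum was 0.0944%, 0.294%, 0.258%, 0.132% and 0.198% in controls 1 to 5. In ablated 1 to 7 it was 0.0785%, 0.00717%, 0.0183%, 0.00829%, 0.0241%, 0.00281% and 0.0103%. The groups did not overlap, but the gap was narrow: control 1 was only 1.20 times ablated 1. The means were 0.195% ± 0.0834 (SD, n = 5) and 0.0213% ± 0.0262 (SD, n = 7), a 9.16-fold lower share. Leaving out ablated 1 gave 0.0118% ± 0.00787 (SD, n = 6), a 16.5-fold lower share. In ablated 1 both values behind the share were extreme: its Eef1a2 was the highest of its group and its Eef1a1 the lowest.

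**Figure D2:**
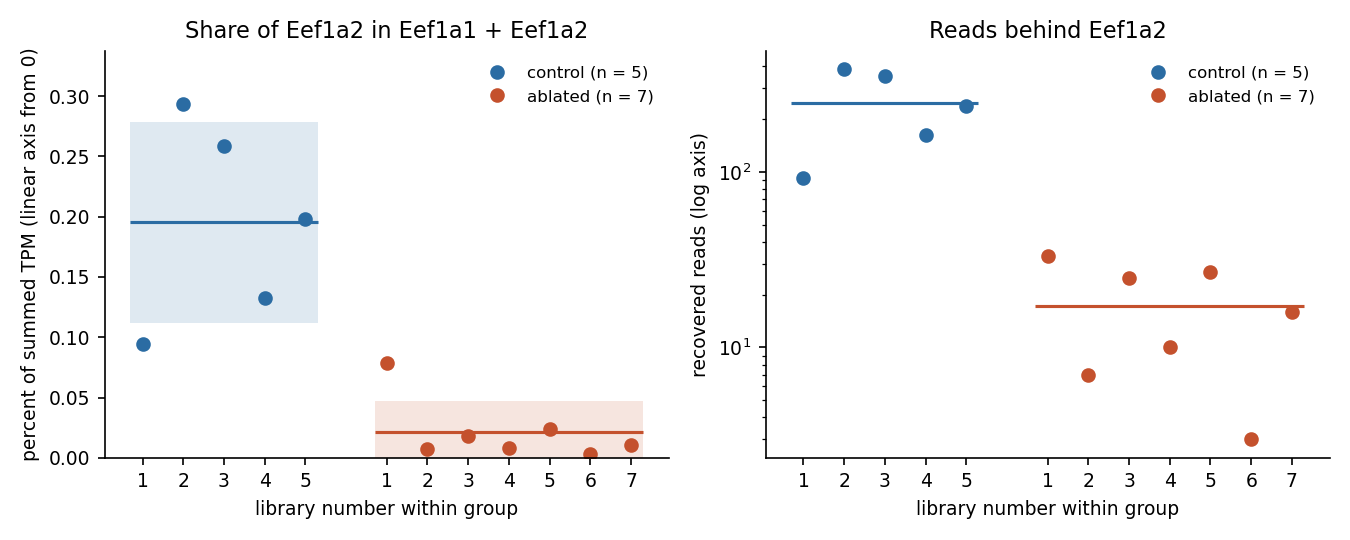
Share of Eef1a2 in the summed TPM of both isoforms (left, percent, linear axis from 0) and recovered reads of Eef1a2 (right, log axis) by library; lines are group means and bands 1 SD, cut at 0 (left panel only). Ablated 1, at 0.0785%, lies just under control 1, at 0.0944%, and the other 6 ablated libraries lie at or below 0.0241%.

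The authors' deposited table lists a log2 fold change of -3.70 for Eef1a2 and of -0.24 for Eef1a1. On the log2(TPM + 0.5) scale used below, the difference was -3.04 for Eef1a2, the 6th lowest of 16164 genes, and -0.23 for Eef1a1, where the median of all genes was 0.03. The added 0.5 TPM brings low levels closer together, so this scale understates the difference in Eef1a2. As Eef1a2 was chosen for this difference, nothing is read from its place among all genes.

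The partners of elongation factor 1A in the elongation cycle were then compared, on a list of 13 other cytosolic elongation genes. None passed the test in either direction (0 higher, 0 lower, limma, against a background of 1.43%), and 0 had an unadjusted p under 0.05. Their median log2 fold change was -0.06. Without ablated 1 that median was 0.00, so its sign depended on that library.

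The eEF1B complex, which reloads elongation factor 1A with GTP, has the exchange subunits Eef1b2 and Eef1d and the structural subunit Eef1g. Eef1b2 was at 580 ± 108 TPM in controls (SD, n = 5) and 465 ± 160 TPM in ablated libraries (SD, n = 7), with a log2 fold change of -0.39 (95% interval -0.93 to 0.15, adjusted p = 0.624). Eef1d, at 117 ± 10.8 and 104 ± 12.3 TPM, had a log2 fold change of -0.17 (-0.39 to 0.05, adjusted p = 0.581). Eef1g, at 607 ± 52.5 and 573 ± 141 TPM, had one of -0.12 (-0.49 to 0.25, adjusted p = 0.890). The valine tRNA synthetase Vars, which binds the complex, was at 34.0 and 35.5 TPM. Eef1e1, a scaffold protein of the multi-synthetase complex, was at 34.5 and 29.6 TPM. All 5 had mean TPM above that of Eef1a2 and below that of Eef1a1 in both groups.

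Eef2 moves the ribosome along the messenger RNA after elongation factor 1A has delivered its tRNA. It was at 776 ± 211 TPM in controls (SD, n = 5) and 861 ± 506 TPM in ablated libraries (SD, n = 7). Its log2 fold change was -0.09 (95% interval -1.04 to 0.87, adjusted p = 0.975), and 0.14 without ablated 1. Eef2k, the kinase that inhibits Eef2, was at 34.9 and 37.8 TPM. Eif5a, which helps ribosomes through stretches that stall, was at 312 and 309 TPM, and its neuron-rich relative Eif5a2 at 1.10 ± 0.176 and 1.01 ± 0.273 TPM (adjusted p = 0.911). Hbs1l, Gtpbp1, Gtpbp2 and the selenocysteine factor Eefsec, which are GTPases related to elongation factor 1A, had log2 fold changes of 0.01, 0.00, 0.10 and 0.15, with adjusted p-values from 0.697 to 0.9998.

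**Figure D3:**
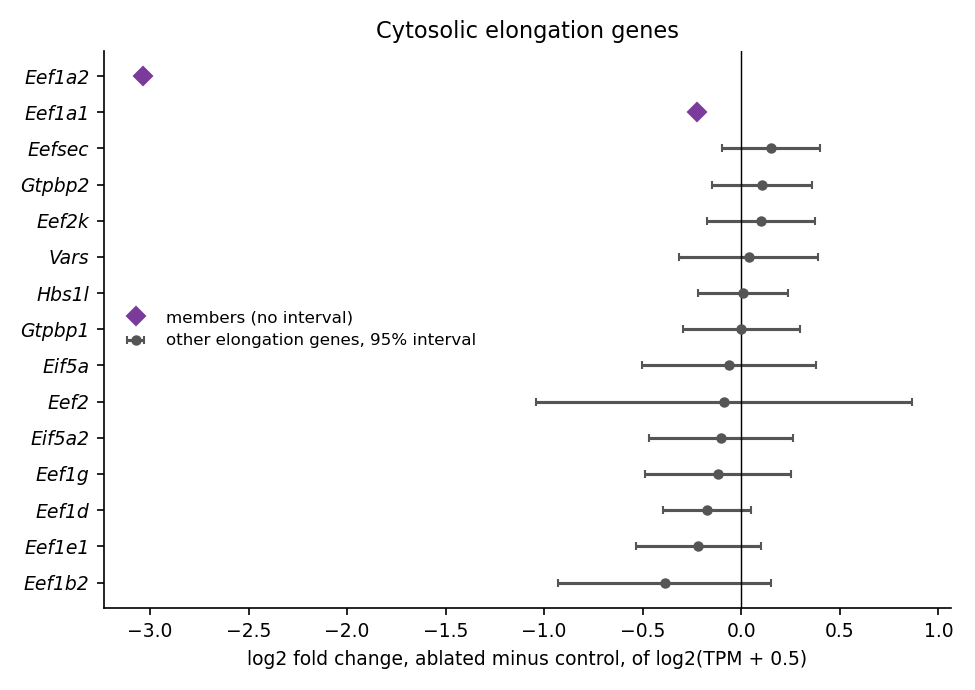
Log2 fold change (ablated minus control, on log2(TPM + 0.5)) of 13 cytosolic elongation genes with 95% intervals from limma, and of Eef1a1 and Eef1a2 as points with no interval, since they were chosen on this contrast. The 13 genes lie between -0.39 and 0.15 with intervals that cross 0, and Eef1a2 lies at -3.04.

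Ablated 1, 2 and 6 were the lowest 3 of the 7 in Eef1a1 and in 5 of the 13 genes (38.5%). They were the lowest 3 in 28.8% of all genes tested, so little is read from that count. Among those 5 genes, Eef2 was at 271, 417 and 326 TPM in these libraries and at 1047 to 1461 TPM in the other 4. Eef1b2 was at 222, 361 and 321 TPM there and at 544 to 611 TPM in the others. The same 3 libraries had the highest mitochondrial shares of the ablated group, 18.7%, 7.36% and 10.4% against 3.56% to 4.92%. The part of mitochondrial reads in these levels was not tested.

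The wider set of translation genes gave the same count. Of 14 genes for enzymes that modify elongation factors, 0 passed, and the lowest adjusted p was 0.258 for Dhps, an enzyme that makes hypusine on Eif5a. It was followed by Dph6 (adjusted p = 0.387), which completes diphthamide on Eef2. The methyltransferases of elongation factor 1A, Eef1akmt1, Eef1akmt2, Eef1akmt3 and Eef1aknmt, had log2 fold changes of -0.44, -0.03, 0.47 and -0.06, with adjusted p-values from 0.612 to 0.974. None passed among 5 mitochondrial elongation genes, 8 termination and recycling genes and 50 initiation genes. In the last list Eif4ebp3, an inhibitor of cap binding, had a log2 fold change of -0.39 (adjusted p = 0.201) and Eif1, a start codon scanning factor, one of -0.24 (adjusted p = 0.276). Over all 90 genes of the 5 lists, 5 had an unadjusted p under 0.05, against 1910 of all 16164 genes tested, and 60 had a negative log2 fold change, against 7167 of the 16164. Without ablated 1 the number with a negative value was 40.

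Eef1a1 messenger RNA is known, like that of the ribosomal protein genes, to begin in a run of pyrimidines that ties its translation to growth signals. The 30 bases below are shown for such a run: the letters CTTTTTC, in capitals, begin at base 54 of the annotated Eef1a1 transcript, within chr9:78481648-78481677 (minus strand). The annotated start thus lies upstream of these letters, and where transcripts begin was not measured here. The first 30 bases of the annotated Eef1a2 transcript, chr2:181156985-181157014 (minus strand), do not hold these letters, nor do its first 100. Those 30 bases do hold pyrimidine runs of other letters, such as ttctctccctc, which this search did not count.
Eef1a1: gacgttCTTTTTCgcaacgggtttgccgtc
Eef1a2: ttctcgctcactggttctctccctcgctcc

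The letters CTTTTTC occurred on the transcript strand in the first 100 bases of 0.862% of 21242 annotated transcripts, 1 for each gene, and on either strand in 1.69%. Among ribosomal protein genes 3 of 73 held them on the transcript strand. Pyrimidine runs at transcript starts differ in their letters between genes. A TATA box, searched as TATATAA, lay in the RefSeq promoter window of Eef1a1 and not in that of Eef1a2, in windows from 250 bases before to 50 after the start. It occurred in 2.20% of 32851 such windows on the gene's strand and in 3.24% on either strand. A match is a description of the letters only.

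The ribosomal protein genes were measured beside Eef1a1 for this reason. Of 76 tested, 0 passed in either direction (limma), 17 had an unadjusted p under 0.05 (1910 of all 16164 genes tested), and all 76 lay below 0 on the log2 scale (median -0.23). The value of Eef1a1 was -0.23. All 76 stayed below 0 under 3 other scalings, with medians of -0.23 to -0.30, while 68 of 76 did after quantile normalization (median -0.14) and 71 of 76 without ablated 1 (median -0.17). For 6 of the 76, control and ablated libraries were fully apart (2.88% of all genes). Ablated 1 was the lowest ablated library in 50 of the 76, in Eef1a1, and in 42.0% of all genes tested.

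The genes whose pattern was most like that of Eef1a1 over the 12 libraries were Eif3m, Ctbp1, Pabpc1, Eif2d and Igbp1, with Pearson r from 0.975 to 0.983 on the log2 scale. Eif3m and Eif2d act in translation initiation, and Pabpc1 binds the poly(A) tail. Within the 7 ablated libraries alone their r with Eef1a1 was 0.975 to 0.992. All points share the depth and composition of their libraries, ablated 1 among them, and these values are a description.

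For Eef1a2 the most alike genes over the 12 libraries were Ptprn (r = 0.976), Elavl4 (r = 0.975), Rtn1, Cplx1, Pcsk2, Mapk10, Asic2, Nmu, Amph and Fgf13, with r of at least 0.953. Many are genes of neurons or of secretory granules: Ptprn is a granule membrane protein, Elavl4 an RNA-binding protein of neurons, Cplx1 a regulator of synaptic vesicle release and Nmu the peptide neuromedin U. Much of such an r is the difference between the groups, for which Eef1a2 was chosen. Within the 7 ablated libraries the r of these 10 genes with Eef1a2 ran from 0.44 for Fgf13 to 0.89 for Amph.

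Among controls, the order of Eef1a2 was that of many neuronal genes. Controls 2 and 3 were the highest 2 in Eef1a2 and in 20 of 27 pan-neuronal genes. Controls 1 and 4 were the lowest 2 in Eef1a2 and in 16 of 27. The share of all genes with the same order was not counted, so these counts have no background. For each transcript of Elavl4, controls held 2.94 ± 0.314 transcripts of Eef1a2 (SD, n = 5), a ratio that varied less than either gene. In the ablated libraries it was 2.29 ± 1.53 (SD, n = 7), from 0.591 in ablated 2 to 5.01 in ablated 7, and the groups overlapped. Against Stmn3, a regulator of microtubules in neurons, the ratio was 1.24 ± 0.253 in controls and 1.31 ± 0.873 in ablated libraries. Against Uchl1, an abundant ubiquitin hydrolase of neurons, it was 0.231 ± 0.0264 and 0.115 ± 0.0941. In the ablated libraries Elavl4 was at 0.393 TPM on average and Stmn3 at 0.709 TPM. Ratios to them there divide low values, and the part of counting error in their spread was not tested.

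Eef1a2 in the ablated libraries was at 8.17% of its control mean. Of 27 pan-neuronal genes only Ina and Prph, both intermediate filaments, had a lower percentage. Eef1a2 was chosen because it was lower, so nothing is read from its place among these genes. Against the summed TPM of the 30 pan-neuronal genes, Eef1a2 was 2.499% ± 0.620 in controls (SD, n = 5) and 0.408% ± 0.377 in ablated libraries (SD, n = 7). That sum includes genes of other cells, such as Chgb of endocrine cells, at 66.2 and 87.0 TPM, and Thy1, at 22.0 and 21.1 TPM. The sum itself was 374 ± 70.3 TPM in controls and 199 ± 28.2 TPM in ablated libraries.

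**Figure D4:**
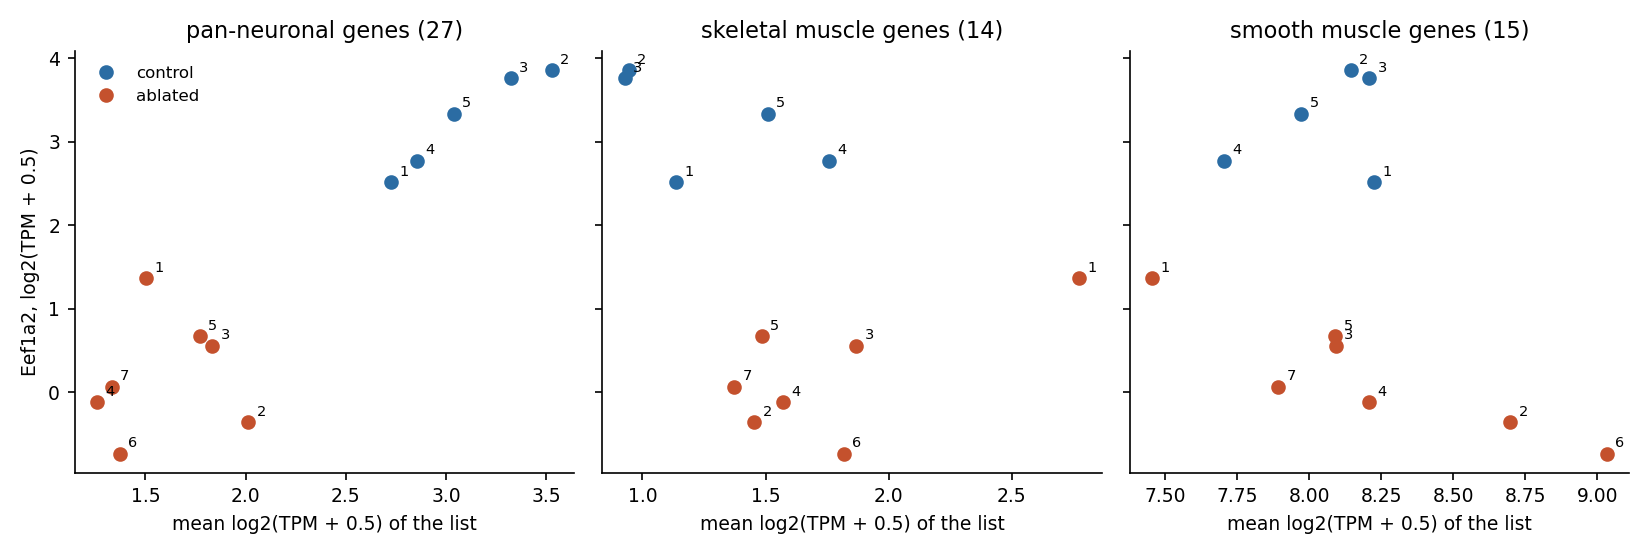
Eef1a2 as log2(TPM + 0.5) against the mean log2(TPM + 0.5) of 27 pan-neuronal, 14 skeletal muscle and 15 smooth muscle genes; each point is a library with its number. Controls rank in the same order for Eef1a2 and for pan-neuronal genes, and among ablated libraries Eef1a2 is high in ablated 1, which is highest in skeletal muscle genes and lowest in smooth muscle genes.

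Other cell types known to hold Eef1a2 were read from their marker lists. Of 16 skeletal muscle genes 14 were tested and 0 passed (2 had an unadjusted p under 0.05, limma), 13 of the 14 had a positive log2 fold change, and the median was 0.38. Tnnt3 (fast troponin T) was at 6.42 ± 3.43 TPM in controls (n = 5) and 27.6 ± 27.1 TPM in ablated libraries (n = 7), with an adjusted p of 0.156, and Acta1 (skeletal actin) had one of 0.158. The summed level of the list was 31.8 to 61.1 TPM in controls and 51.4 to 167 TPM in ablated libraries. Ablated 1 was the highest ablated library in 11 of the 14 genes, as in Eef1a2, and in 4 of 27 pan-neuronal genes. It was the lowest ablated library in 42.0% of all genes tested. The share of all genes in which it was the highest was not counted. None of 8 cardiac muscle genes passed, with a median log2 fold change of -0.01. The mean log2 level of this cardiac list was also highest in ablated 1, at 3.02. It was 0.70 to 2.03 in the other ablated libraries and 0.82 to 2.39 in controls. Of 16 enteroendocrine genes, Tph1, which makes serotonin, was higher, and the hormone gene Sst and the calcium sensor Scgn were lower (limma, adjusted p of 0.00407, 0.0138 and 0.0260). The background over all genes tested was 1.43%.

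Cells of the gut wall that are not known for Eef1a2 differed in part. None of 15 smooth muscle genes passed (1 had an unadjusted p under 0.05, limma), with a median of 0.10 and a summed level of 8217 to 12560 TPM in controls and 8256 to 26345 TPM in ablated libraries. Of 13 glial genes tested, 2 were lower (Scn7a and Ngfr), and of 16 epithelial genes 3 were higher (Tff3, Zg16 and Fcgbp). Of 6 genes of interstitial cells and 10 of macrophages, 0 passed, with a lowest adjusted p (limma) of 0.0504 in the first list. Of 8 lymphocyte and plasma cell genes 1 was lower (Tnfrsf17). Over all genes tested, 1.43% passed. The summed epithelial level was 17739 to 25959 TPM in controls and 30272 to 40711 TPM in ablated libraries, without overlap. The mean log2 level of this list did overlap, at 8.95 to 9.36 in controls and 9.23 to 9.86 in ablated libraries. Of its 16 genes, 12 lay above 0 on the log2 scale and 4 below, and 3 were fully apart. The summed interstitial cell level also did not overlap, at 118 to 141 TPM in controls and 150.02 to 208 TPM in ablated libraries. The mean log2 level of that list did overlap, at 3.27 to 3.37 in controls and 2.87 to 3.54 in ablated libraries. Of its 6 genes, 3 lay above 0 on the log2 scale and 3 below, and 2 were fully apart (2.88% of all genes tested). Neither sum has a background. The part of these other cells in the Eef1a2 level was not tested.

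Within the 7 ablated libraries the spread of Eef1a2 was compared with 4 of these lists, a relation that the choice of the gene did not use. With the smooth muscle level Pearson r was -0.90 (exact permutation p = 0.00734, adjusted over the 4 lists 0.0294) and Spearman rho -0.89 (exact permutation p = 0.0123, adjusted 0.0492). Without ablated 1 and 6, the libraries farthest from the median of that level, r was -0.62 over 5 libraries. Leaving out any of ablated 1 to 6 in turn ended the call, with r from -0.82 to -0.92 and adjusted p from 0.05 to 0.206 over 6 libraries. Without ablated 7 the call held, with r of -0.96 and an adjusted p of 0.00556. With the skeletal muscle level r was 0.64 (exact permutation p = 0.122, adjusted 0.245; rho 0.36, p = 0.444, adjusted 0.593), and -0.087 without ablated 1. With the pan-neuronal level r was 0.15 (exact permutation p = 0.750, adjusted 0.750; rho 0.14, p = 0.783, adjusted 0.783), and with the enteroendocrine level -0.23 (exact permutation p = 0.619, adjusted 0.750; rho -0.43, p = 0.354, adjusted 0.593). Without the farthest 2 libraries these 3 values of r were -0.63, 0.56 and -0.20.

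The 10 genes whose levels were most like Eef1a2 within the ablated libraries were Tradd (r = 0.988), Casp1, Hdac4, Mcoln1, Myh4, Igsf9, Bet1l, Junb, Sun2 and Camsap3, with r of at least 0.955. Myh4 is a myosin of fast skeletal muscle, Tradd an adaptor of the tumor necrosis factor receptor and Casp1 the inflammasome caspase. None was among the 10 found over all 12 libraries. They are the highest of 15839 genes over 7 points, and are given as a description.

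Eef1a1 and Eef1a2 are one case of a widely expressed gene with a partner restricted to neurons or muscle, and 19 other such pairs were set beside them. Of 18 restricted partners tested, 4 were lower and 0 higher (limma, against a background of 1.43%). They were Uchl1, Elavl4, Tubb3 and Kif5a, with log2 fold changes of -2.48, -2.07, -1.84 and -1.28 and adjusted p-values of 0.000406, 0.000860, 0.00577 and 0.0130. Uchl1, Elavl4 and Tubb3 are also on the pan-neuronal list counted above, so this count in part repeats that one. Of the widely expressed partners 17 were tested and 0 passed, with a lowest adjusted p (limma) of 0.385. The call of Kif5a, a kinesin of axons, was lost without control 2 (adjusted p = 0.0530) or control 3 (adjusted p = 0.0505).

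Eef1a2 was rarer beside its partner than any of these 4. The share of Uchl1 in Uchl1 plus Uchl3 was 45.0% ± 8.96 in controls (SD, n = 5) and 12.5% ± 4.81 in ablated libraries (SD, n = 7). Elavl4 had 14.2% ± 4.56 and 2.48% ± 2.16 of its sum with Elavl1. Tubb3, a tubulin of neurons, had 23.3% ± 6.60 and 6.43% ± 2.21 of its sum with Tubb5. Kif5a had 6.54% ± 2.42 and 1.91% ± 0.997 of its sum with Kif5b, and its groups overlapped. The shares of the first 3 did not overlap between groups, as for Eef1a2.

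The other neuronal partners did not pass. Several are known to be made also by cells outside the nervous system, and the part of such cells here was not tested. Eno2, the neuronal enolase, had a share of 1.60% ± 0.501 and 1.26% ± 0.867, and Tubb4a 1.22% ± 0.323 and 0.808% ± 0.613. Actl6b, the gene of BAF53b itself, was at 0.971 ± 0.372 and 0.447 ± 0.224 TPM, with an adjusted p of 0.222 and a share of 2.40% ± 1.03 and 1.33% ± 1.17 of its sum with Actl6a. Cyfip2, Kif5c, Aldoc and Ptbp2 had mean shares that were 1.65, 1.60, 1.18 and 1.12 times as high in controls. Dnm1 and Mapre3 had mean shares lower in controls, at 0.939 and 0.917 times the ablated share. The muscle partners Pgam2, Eno3 and Rpl3l had ratios of 0.889, 0.887 and 0.470, and Rpl3l was below the minimum for testing.

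**Figure D5:**
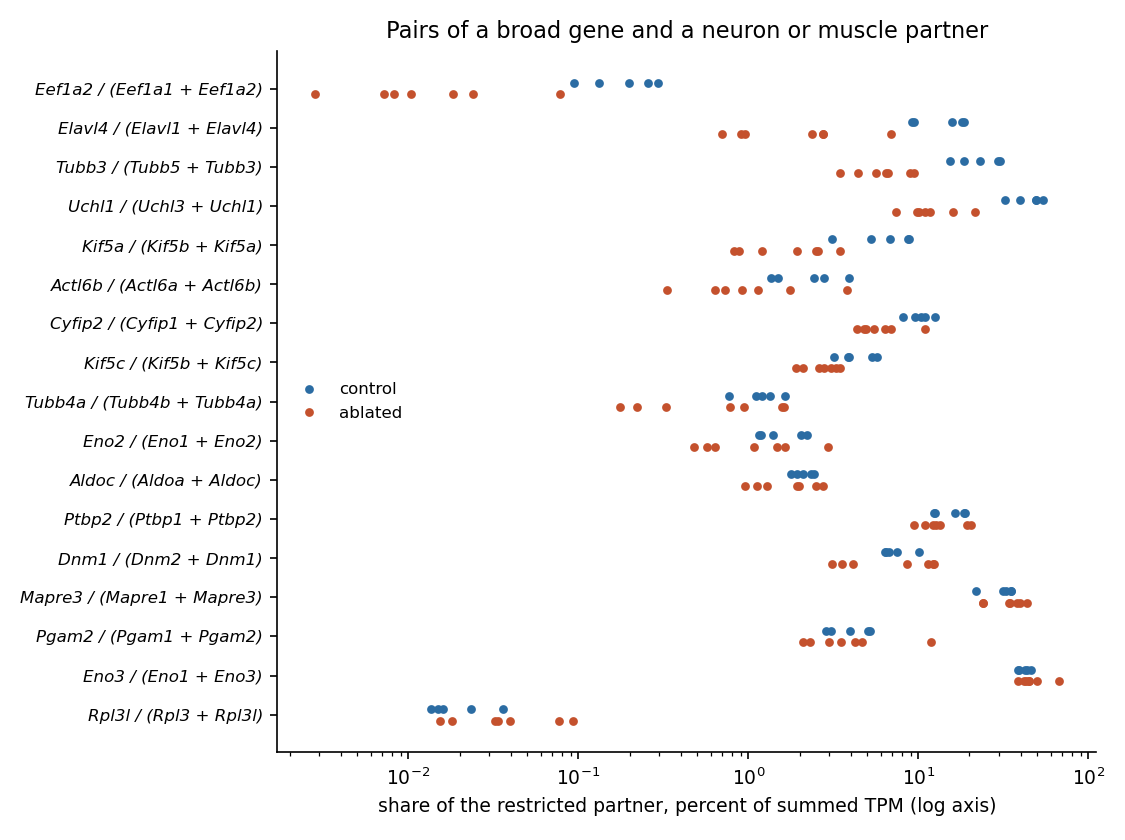
Share of the restricted partner in the summed TPM of each pair (percent, log axis), 1 point for each of 5 control and 7 ablated libraries, for the pairs named in the text, ordered by the ratio of the group means. The Eef1a pair, which was chosen on this contrast, is at the top of the order with a 9.16-fold ratio. The groups are apart for Eef1a2, Elavl4, Tubb3 and Uchl1.

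The neighbours of both genes were read from the nearest 5 tested genes on each side. Over all genes tested, 1.43% passed (limma), and the median log2 fold change was 0.03. Around Eef1a1 0 of 10 passed, with a median log2 fold change of 0.10, and the nearest were Mto1 (0.17, adjusted p = 0.562) and Slc17a5 (0.22, adjusted p = 0.632). Around Eef1a2 1 of 10 passed, with a median of 0.21, and the nearest were Col20a1 (-0.04, adjusted p = 0.983) and Ppdpf (-0.19, adjusted p = 0.579). The 1 that passed was Stmn3, a pan-neuronal gene at positions 181306459 to 181314500 of chromosome 2. It was at 7.70 ± 2.76 TPM in controls (SD, n = 5) and 0.709 ± 0.483 TPM in ablated libraries (SD, n = 7), with a log2 fold change of -2.78 and an adjusted p of 0.000194.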

How the data were processed

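The deposited files hold TPM per gene, in per-sample files that match the authors' table of the series, and the authors' edgeR comparison (log2 fold change, average log2 CPM, the F score, and the p-value with its false discovery rate). Per the submitters' processing notes, bcl2fastq 2.17, HISAT and featureCounts were used with mm10. Per the labels' protocols, polyadenylated RNA was made into directional libraries. The 16164 genes that reached 0.5 TPM in 5 or more libraries were fitted on log2(TPM + 0.5) with limma 3.58.1 (trend) in R 4.3.3, 7 ablated against 5 control libraries, 2-sided. Adjustment was by the Benjamini-Hochberg method across those genes. In simulated data the fit called 77 of 96 genes changed 2-fold and 96 of 96 changed 4-fold. The simulation gave every gene the same relative spread and let libraries of a group differ only in depth. Its rates therefore do not carry over to genes or libraries that vary more. Whole reads were recovered from TPM for 22840 of 22842 genes above 0, with 99.993% of values within 0.05 read of a whole number. Permutations used SciPy 1.17.1. Sequences came from GENCODE and the mm10 genome, and promoters from RefSeq tables.

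The members and lists were chosen with earlier results of these data known. Named genes were both isoforms, all cytosolic elongation genes, all pairs, genes that passed or had the smallest p in each list, nearest tested neighbours, and those with the highest r with each isoform; a few pairs are counted but not reported here by name. Alternatives varied the pseudocount, minimum, scaling, variance model, weights, replicate block and libraries.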

Additional observations from a re-analysis of the deposited data

Results flagged for a closer look

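In 72 groups of values checked for a library far from the rest, 8 had one, and chance alone marks about 5% of groups. Ablated 1 had a share of Eef1a2 of 0.0785%, and the other 6 ablated libraries had 0.00281% to 0.0241%. The same library stood apart in 4 other pairs: its share of Elavl4 was 6.93% (others 0.696% to 2.73%), of Actl6b 3.79% (others 0.334% to 1.76%), of Pgam2 11.9% (others 2.09% to 4.65%) and of Eno3 67.5% (others 38.5% to 49.9%). Control 1 had Eef1b2 at 769 TPM, with 503 to 555 TPM in the other controls, and a share of Mapre3 of 21.9%, with 31.4% to 35.2% in the others. Ablated 3 had a share of Cyfip2 of 11.02%, with 4.33% to 6.95% in the others.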

How the results depend on the processing

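The log2 fold of group means of Eef1a2 was -3.61, with a range of -3.42 to -4.13 under the 16 alternatives tried. That of Eef1a1 was -0.19, with a range of -0.07 to -0.24. Eef1a2 was chosen because it was lower, and its groups did not overlap. Leaving out 1 library could therefore not reverse its direction, and nothing is read from the constant sign. No gene of the 5 translation lists passed under any alternative. The number of genes called, 231 (68 higher, 163 lower), was 349 (273 lower) with no minimum level and 1092 (654 higher, 438 lower) with a weight for each library. Leaving out 1 library gave 128 to 328 (23 to 126 higher, 105 to 202 lower), with 128 without control 2, 137 without control 3 and 126 higher without ablated 1. With libraries 1 to 5 of each group, 114 genes passed without a replicate block (22 higher, 92 lower) and 89 with it (15 higher, 74 lower). In a check of pairing, same-numbered libraries had r of -0.27 to 0.36, and 1 of 5 correlated best with its own number. Any 2 libraries had r of 0.897 to 0.987, so the r of that check is on another scale. With 5 pairs, the check cannot decide whether library numbers pair the samples. The Kif5a call was lost with libraries 1 to 5, with adjusted p (limma) of 0.0700 without the block and 0.162 with it. Eno2 and Tubb4a passed only with library weights. The r of Eef1a2 with the pan-neuronal level was -0.056 without ablated 6 and up to 0.53 without another library, that with the skeletal muscle level -0.087 to 0.83, and that with the smooth muscle level -0.82 to -0.96; the cause was not tested. Depth limits Eef1a2, with 3 to 33 reads in each ablated library. The alternatives that rescale TPM without mitochondrial genes, refit the relations, or use libraries 1 to 5 without a block were added after seeing the data.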
